A study of Mus musculus with 4 samples.

Results

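The 10 genes followed here across the stroma of the mouse thymus mark or regulate epithelial-to-mesenchymal transition (EMT): the epithelial adhesion genes Epcam and Cdh1, the mesenchymal genes Cdh2, Vim and Fn1, and the transcription factor genes Zeb1, Zeb2, Snai1, Snai2 and Twist1. They were taken by symbol from the deposited matrices, where each had 1 entry, so that 10 of the 32285 listed features were followed. All 10 had UMIs in all 4 libraries.

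In EMT, an epithelial cell loses its junctions to its neighbours and takes on the cytoskeleton and matrix production of a mesenchymal cell. Factors of the ZEB, Snail and Twist families bind short E-box sequences and are best known as repressors of epithelial genes such as Cdh1, and many cells carry only part of the programme. In the thymus, epithelial cells (TECs) guide the development of T cells, while fibroblasts, mural cells and endothelium form the mesenchymal and vascular stroma around them.

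The data are droplet-based single-cell RNA-seq of CD45- thymic cells from untreated C57BL/6 mice aged 6 months. A pair of libraries came from wild-type mice (WT 1 and WT 2, titled mock) and a pair from mice homozygous for LacZ at Foxn1 (Z/Z 1 and Z/Z 2), a hypomorphic allele of the transcription factor gene on which TECs depend. Between 10 and 15 thymi are described as digested together, followed by depletion of CD45-positive cells and a flow sort, so that class shares also reflect digestion and sorting. The labels do not say whether libraries of a genotype came from separate pools, so the p-values measure the spread between these libraries, which may be technical. Sex is given as male in one field and female in another.

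Kept cells numbered 456 to 4455 per library, of which 104 to 1952 were TECs and 180 to 1102 fibroblasts. The TEC sums held 13519395, 2531113, 22845199 and 20662624 UMIs in WT 1, WT 2, Z/Z 1 and Z/Z 2, so WT 2 is the least precise library throughout. Called barcodes were partly common to both libraries of a genotype, 202 in the WT pair and 249 in the Z/Z pair, and the shallower copy held a median of 3.24% and 1.78% of the UMIs of the deeper one. After filtering, 16 and 33 barcodes were kept in both libraries of a pair. Foxn1 itself was at 76.5, 101, 48.2 and 64.0 CPM (UMIs relative to the library's total, here after TMM scaling) in the TEC sums, lower in both Z/Z libraries without passing the test (log2 fold change -0.65, SE 0.22, edgeR adjusted p = 0.0881).

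Epcam is the epithelial member for which promoter sequence was at hand, so the 250 bases upstream of its start are shown with the motifs that ZEB and Snail factors are known to bind. Epcam (ENSMUSG00000045394) lies at chr17:87635979-87651129 on the plus strand of GRCm38, and no annotated exon overlaps the stretch before it. The stretch, from the RefSeq table of GRCm38.p6, is chr17:87635729-87635978 on the plus strand, with each CACCTG or CAGGTG in capitals (the same E-box read on either strand):
Epcam upstream: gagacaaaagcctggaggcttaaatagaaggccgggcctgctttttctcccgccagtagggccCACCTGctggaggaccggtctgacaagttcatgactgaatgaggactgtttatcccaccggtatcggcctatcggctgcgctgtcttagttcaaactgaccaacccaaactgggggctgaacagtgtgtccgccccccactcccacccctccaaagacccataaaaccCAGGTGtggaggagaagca

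The first match sits at chr17:87635792-87635797 and begins 187 bases upstream of the start. The second, at chr17:87635960-87635965, begins 19 bases upstream. Of 32851 promoters in the table, 17.2% held at least 1 match in the same 250 bases and 2.06% held more than 1. Among the other members with entries, Snai1 had a match in its 1 promoter, whereas Vim, Twist1 and the 4 promoters of Zeb2 had none. A match is a description of letters, and binding was not measured.

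The clusters were made without the 10 genes and without the EMT lists given further on. The lineages and classes were named from markers that exclude the 10 genes, although Col1a1, Col3a1, Acta2 and Postn of those lists were among the markers. The levels of the 10 genes by class thus describe genes that took no part in the naming. They are still levels of the cells that were clustered and carry no test. Values by class are CPM of the UMIs pooled over libraries, without TMM scaling. Shares are of cells thinned to 2000 UMIs, so that deep and shallow cells can be set side by side. Intervals and detection limits cover counting error only.

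Epcam, a cell adhesion protein on the surface of epithelial cells, reached its highest level in aaTEC1-like cells, a class marked by Cldn3, Plet1 and Otog, at 1647 CPM and in 87.2% of cells. The libraries with at least 20 such cells had 1607 (Z/Z 1) and 1688 CPM (Z/Z 2). Microfold-like cells followed with 1558 CPM, although that cluster was also led by the chemokine genes Ccl6 and Ccl9. The cluster named aaTEC2-like stood at the other end with 29.1 CPM and UMIs in 4.39% of its 911 thinned cells, against 1.26% of fibroblasts, 1.70% of endothelial cells and 1.89% of haematopoietic cells. Among the other TEC clusters the lowest was cluster 7, at 182 CPM and 28.4% of cells.

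Cdh1 encodes E-cadherin, the adherens junction protein whose loss is a hallmark of EMT (ENSMUSG00000000303, chr8:106603351-106670246, plus strand). Its pooled level was highest in the 18 Neuro-like cells at 1375 CPM and in cluster 9 at 1302 CPM, and aaTEC1-like cells had 1023 CPM. In aaTEC1-like cells, the 2 Z/Z libraries gave 1079 and 958 CPM. Cdh1 in aaTEC2-like cells was 25.1 CPM, with UMIs in 3.95% of cells, against 235 to 1375 CPM in every other TEC cluster. Microfold-like cells, which had nearly the highest Epcam, had the lowest Cdh1 of those clusters, so the levels of the epithelial pair did not follow the same order.

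Cdh2 encodes N-cadherin, which replaces E-cadherin in the classical cadherin switch (ENSMUSG00000024304, chr18:16588877-16809246, minus strand). It was highest in Tuft-like cells, a chemosensory class, at 313 CPM and in 35.7% of cells, with Neuro-like cells next at 81.3 CPM. By library, Tuft-like cells had 381, 395, 130 and 168 CPM in WT 1, WT 2, Z/Z 1 and Z/Z 2, from 36, 7, 7 and 22 cells. Both WT values lay above both Z/Z values there, although WT 2 and Z/Z 1 had under 20 cells. Cdh2 was low in the mesenchymal lineages of this tissue, with 18.1 CPM in fibroblasts, 38.9 in mural cells and 7.41 in endothelial cells, and its level in aaTEC2-like cells was 6.67 CPM.

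Vim encodes vimentin, the intermediate filament of mesenchymal cells (ENSMUSG00000026728, chr2:13573927-13582826, plus strand). Fibroblasts had 1061 CPM, mural cells 977 and endothelial cells 735. Within TECs, aaTEC2-like cells had 508 CPM with UMIs in 45.4% of cells, and cluster 11, an unnamed cluster led by Utf1, Aire, Pclaf and Top2a, had 388 CPM in 49.5% of cells. In the 3 libraries with at least 20 cells of cluster 11, Vim was at 338 (WT 1), 411 (Z/Z 1) and 494 CPM (Z/Z 2). The remaining TEC clusters ran from 5.29 CPM in Basal or goblet-like cells to 151 in Microfold-like cells, with mTEC1-like cells at 124 and Aire-stage mTEC2-like cells at 126.

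Fn1 encodes fibronectin, a matrix protein (ENSMUSG00000026193, chr1:71585520-71653200, minus strand). Fibroblasts had 427 CPM, against 47.1 in TECs, 62.6 in endothelial and 55.3 in mural cells, and the fibroblast classes also differed widely. Capsular-like fibroblasts (markers Dpp4, Smpd3 and Pi16) had 1559 CPM with UMIs in 91.4% of cells, fibroblast cluster 4 had 1146 CPM and intermediate-like fibroblasts 203. Medullary-like fibroblasts (markers Ptn, Postn and Col15a1) had 8.56 CPM and UMIs in 1.38% of cells, close to the level of aaTEC2-like cells at 6.35 CPM. In TECs the highest level was in Aire-stage mTEC2-like cells at 106 CPM. The cluster with the most Zeb2 among TECs was therefore among those with little Fn1.

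Zeb2 encodes a zinc finger repressor of Cdh1 (ENSMUSG00000026872, chr2:44983632-45117395, minus strand). Its level in aaTEC2-like cells was 1195 CPM with UMIs in 78.6% of cells, close to that of fibroblasts, at 1072 CPM and 76.5%, and above mural cells at 788 CPM. The libraries with at least 20 aaTEC2-like cells had 1208 (Z/Z 1) and 1182 CPM (Z/Z 2), and the 11 such cells of WT 1 had 1078 CPM. No other TEC cluster exceeded 70.9 CPM, the value of aaTEC1-like cells, and endothelial cells had 104 CPM. The antisense gene Zeb2os overlaps Zeb2 on the opposite strand and had 2 to 57 UMIs per library in the TEC sums.

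Zeb1 encodes the other ZEB factor (ENSMUSG00000024238, chr18:5591860-5775467, plus strand) and was spread more evenly. Haematopoietic cells had 1429 CPM, fibroblasts 1295, endothelial cells 520 and mural cells 378. TEC clusters ranged from 9.52 CPM in Basal or goblet-like cells to 301 in Neuro-like cells, with mTEC1-like cells at 217 and aaTEC2-like cells at 203. In the libraries with at least 20 cells, mTEC1-like cells had 270, 176 and 233 CPM (WT 1, Z/Z 1 and Z/Z 2) and aaTEC2-like cells had 199 and 205 (Z/Z 1 and Z/Z 2), so these 2 classes overlapped. Unlike Zeb2, the Zeb1 level of aaTEC2-like cells was thus within the range of other TECs.

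Snai2 encodes Slug, a Snail-family repressor (ENSMUSG00000022676, chr16:14705852-14709385, plus strand), and was the one factor with a higher pooled level in TECs, at 26.2 CPM, than in aaTEC2-like cells, at 8.13. It was highest in cTEC-like cells, the cortical class, at 69.9 CPM and in mTEC1-like cells at 59.0 CPM, above fibroblasts at 21.0. In cTEC-like cells WT 1, Z/Z 1 and Z/Z 2 had 60.9, 57.6 and 84.2 CPM, and in mTEC1-like cells 64.1, 58.2 and 57.0 CPM, so the order of these classes was within the spread of the libraries. Aire-stage mTEC2-like cells had 2.34 CPM.

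Snai1, the founding Snail factor (ENSMUSG00000042821, chr2:167538195-167542814, plus strand), was highest in endothelial cells at 55.5 CPM and in 8.28% of cells. Fibroblasts had 21.0 CPM, mural cells 19.9 and aaTEC2-like cells 17.3, where the 2 Z/Z libraries differed (22.6 and 9.87 CPM, from 81 and 24 UMIs). Other TEC clusters had at most 3.07 CPM. Twist1, a basic helix-loop-helix factor (ENSMUSG00000035799, chr12:33957671-33959829, plus strand), was at 87.7 CPM in fibroblasts and 22.5 in mural cells. Its highest TEC level was 4.72 CPM, in aaTEC2-like cells, far below fibroblasts, while endothelial cells had 2.61 CPM.

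**Figure D1:**
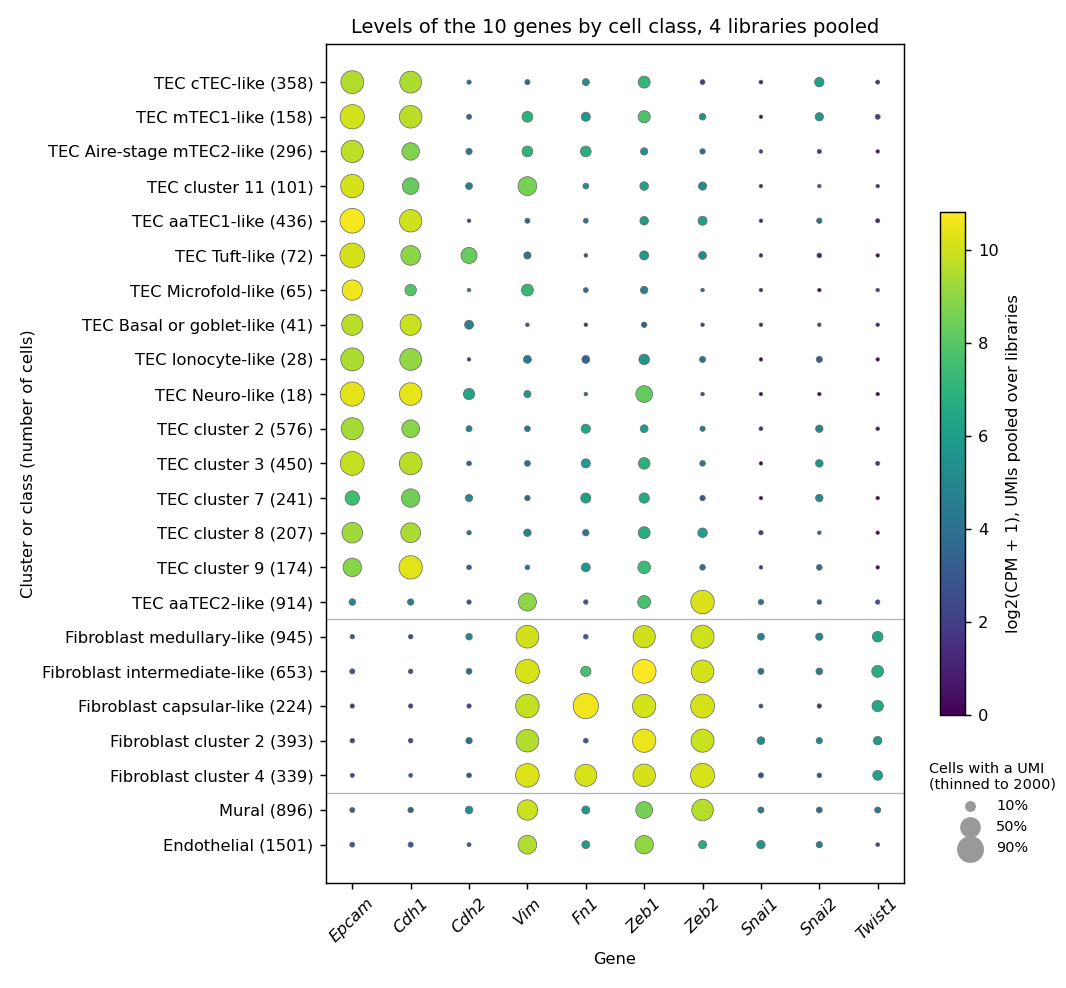
Each row is a cell cluster or class with its number of cells and each column a gene. Colour gives log2(CPM + 1) of the pooled UMIs and dot size the share of cells with a UMI after thinning to 2000 UMIs. In the aaTEC2-like row, Epcam (29.1 CPM) and Cdh1 (25.1 CPM) are low and Zeb2 (1195 CPM) is near the fibroblast rows, while Twist1 (4.72 CPM) is not, and Fn1 (6.35 CPM) is near the medullary-like row (8.56 CPM) and far below the capsular-like row (1559 CPM).

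The epithelial identity of the aaTEC2-like cluster rested on narrow values. It held 914 cells, and its mean TEC marker value relative to the highest cluster was 0.206, against a minimum of 0.2. Of the 15 TEC markers, 8 were detected in at least 20% of its cells. All 5 of the aaTEC2 markers were detected, and Nos1 had UMIs in 57.9% of cells. Keratins were low: Krt8 was seen in 7.14% and Krt18 in 10.2% of cells, against 6.92% and 10.7% of haematopoietic cells and 82.3% and 89.3% of cTEC-like cells. The 15 TEC markers together summed to 1056, 2754 and 3085 CPM in the aaTEC2-like cells of WT 1, Z/Z 1 and Z/Z 2. That was above the fibroblast sums, at 124 to 205.5 CPM, and below the sums of all TECs, at 10580 to 17450 CPM. The highest marker was Eya1 in WT 1 (433.5 CPM) and Cd74 in Z/Z 1 and Z/Z 2 (1102 and 1536 CPM). Dcn, a fibroblast marker, was seen in 33.6% of cells, against 99.5% of fibroblasts, while Pdgfra was seen in 0.220%. The 6 fibroblast markers summed to 1971, 818 and 1219 CPM in the aaTEC2-like cells of WT 1, Z/Z 1 and Z/Z 2. In WT 1, from 11 cells, this was above the sum of the 15 TEC markers. Over the TECs of each library the 6 markers summed to 105 to 251 CPM, and over fibroblasts to 12180 to 15270 CPM. The 7 mural markers summed to 694, 698 and 748 CPM in the aaTEC2-like cells of WT 1, Z/Z 1 and Z/Z 2, with Notch3 highest at 213 to 331 CPM, against 227 to 383 CPM over the TECs of each library. Of these markers the pericyte gene Kcnj8 was seen in 0 of 911 thinned cells, which allows a share of up to 0.329%, but it had UMIs before thinning in Z/Z 2. The leading genes were Sparcl1, Zeb2, Nos1 and Gucy1a1. Whether these cells are epithelial was not tested, and the main results for all TECs are therefore given with and without them. The interaction test against fibroblasts was run only with them.

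Over the 49 sums of a class in a library with at least 30 cells, Cdh1 and Zeb2 were opposed (Pearson r of log2(CPM + 1) = -0.84). Epcam had r = -0.89 with Zeb1 and -0.84 with Zeb2, and Vim had r = 0.82 with Zeb2 and 0.81 with Twist1. These r values describe sums that share libraries and lineages, and the lineages form separate groups of points. Snai2 followed none of the others, with r between -0.11 and 0.15. Cdh2 was likewise between -0.14 and 0.20.

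**Figure D2:**
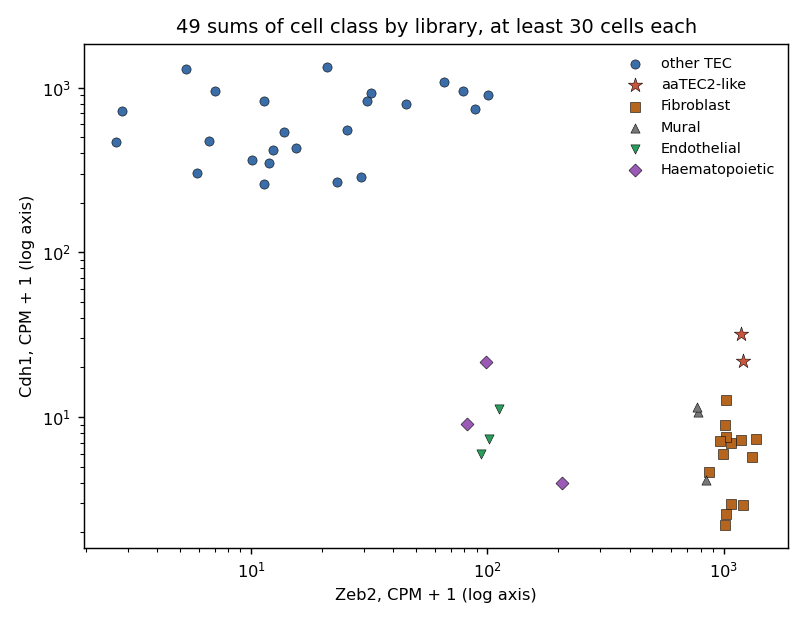
Each point is the sum of 1 class in 1 library (49 sums with at least 30 cells). Both axes are CPM + 1 on a log scale. The 24 TEC sums other than aaTEC2-like have at least 259 CPM of Cdh1 and at most 99.9 CPM of Zeb2. The 2 aaTEC2-like sums have 1208 and 1182 CPM of Zeb2, within the range of the fibroblast sums. Their Cdh1, at 20.9 and 30.9 CPM, lies above every fibroblast sum (at most 11.6 CPM) and mural sum (at most 10.5 CPM). The haematopoietic sums reach 20.5 CPM of Cdh1 (WT 1), level with the lower of these aaTEC2-like values.

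Among 13966 genes with at least 10 CPM in at least 3 of these sums, the genes whose levels most resembled Epcam were Cdh1 (r = 0.973), the keratin gene Krt8 (0.971) and Esrp1 (0.967), which encodes an epithelial splicing regulator. For Cdh1 they were Esrp1 (0.977), Epcam (0.973) and Cdcp1 (0.973). Zeb2 was most like Prrx1 (0.922), a mesenchymal homeobox gene, followed by Clip3 (0.895) and Sod3 (0.894). For Vim they were Cnrip1 (0.918), Jam3 (0.895) and C1qtnf1 (0.892). For Zeb1 the values were lower, with Itm2a at 0.869 and Slc1a5 and Tacc1 at 0.865. Fn1 was most like Pcsk6 (0.826), Car8 (0.809) and Gm28320 (0.782), and Snai2 like Pltp (0.778), Gas6 (0.761) and Ch25h (0.741).

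The genotypes were then compared in UMIs summed per library over all TECs, with the 4 libraries as samples. In such sums, fewer cells of a type and less RNA per cell cannot be told apart. Zeb2 and Cdh1 were higher in Z/Z and Cdh2 and Fn1 lower, so 4 of 10 members passed the test (edgeR quasi-likelihood, Benjamini-Hochberg over all genes), where 21.1% of the 19006 genes tested did, 9.36% higher and 11.8% lower. The median log2 fold change of the members was 0.52, and that of all genes was -0.01.

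Cdh1 in TECs was at 443, 512, 745 and 697 CPM in WT 1, WT 2, Z/Z 1 and Z/Z 2. The genotypes did not overlap, which also held for 67.8% of all genes tested in TECs. The level was 1.51-fold higher in Z/Z (log2 fold change 0.60, SE 0.15, edgeR adjusted p = 0.0481). This call was lost with any 1 library left out, with adjusted p between 0.0612 and 0.179. Epcam was at 748, 782, 993 and 1087 CPM in the same order, again without overlap, and did not pass (0.44, SE 0.15, edgeR adjusted p = 0.0907). With cells thinned to equal depth its difference took the other sign, at -0.15. Of the Cdh1 UMIs, aaTEC1-like cells held 41.0% (Z/Z 1) and 37.1% (Z/Z 2), against 4.00% (WT 1) and 17.9% (WT 2). Their part of the Epcam UMIs was 45.8% and 42.0%, against 4.76% and 15.5%, in the same order. They made up 11.9% and 11.8% of Z/Z TECs, against 2.55% and 8.65% of WT TECs (14 and 9 cells). The part of this larger share in the Cdh1 and Epcam differences was not tested.

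Cdh2 was at 36.9, 38.1, 12.7 and 10.4 CPM, 3.25-fold lower in Z/Z (log2 fold change -1.70, SE 0.20, edgeR adjusted p = 0.00952). Tuft-like cells held 39.7% and 52.9% of the Cdh2 UMIs of the WT TEC sums and 4.40% and 18.4% in Z/Z, and they made up 6.55% and 6.73% of WT TECs against 0.359% and 1.44% of Z/Z TECs. Fn1 was at 73.6, 75.8, 42.9 and 32.2 CPM, 1.99-fold lower in Z/Z (-0.99, SE 0.19, edgeR adjusted p = 0.0243). Aire-stage mTEC2-like cells held 66.4% and 82.3% of the Fn1 UMIs in WT and 1.62% and 11.2% in Z/Z. Those cells were 34.0% and 32.7% of WT TECs and 1.49% and 3.01% of Z/Z TECs, so both of the members that were lower had 39.7% to 82.3% of their WT UMIs in a class that was a smaller share of Z/Z TECs. Without Z/Z 1, Cdh2 (-1.81) and Fn1 (-1.17) did not pass, in a fit where no gene at all did. Without Z/Z 2, Fn1 (-0.77) did not pass.

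Zeb2 was at 22.7, 16.4, 234 and 185 CPM, 10.4-fold higher in Z/Z (log2 fold change 3.38, SE 0.23, edgeR adjusted p = 0.00734). The aaTEC2-like cells made up 2.00% and 0% of WT TECs (11 and 0 cells) and 27.8% and 23.5% of Z/Z TECs (543 and 360 cells), where 0 of 104 cells in WT 2 allows a share of up to 2.88%. These cells held 42.2% of the Zeb2 UMIs of WT 1, none of the 44 in WT 2, and 85.9% and 79.9% of those in Z/Z 1 and Z/Z 2. With them left out, Zeb2 still passed, with a smaller difference (log2 fold change 1.46, SE 0.21, edgeR adjusted p = 0.0149). Among the other TEC classes, aaTEC1-like cells held the most Zeb2 UMIs in Z/Z, 7.77% and 11.4% (392 and 410 UMIs). In WT 1 and WT 2 the aaTEC1-like share was 1.23% and 72.7% (4 and 32 UMIs). That class was also a larger share of Z/Z TECs, at 11.9% and 11.8% against 2.55% and 8.65% in WT. Without Z/Z 1 the Zeb2 difference for all TECs was 3.26 and did not pass, in a fit where no gene at all did.

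Vim was at 107, 75.8, 104 and 147 CPM. The genotypes overlapped, and it did not pass (log2 fold change 0.45, SE 0.25, edgeR adjusted p = 0.248). Cells of the aaTEC2-like cluster held 4.88% and 0% of the WT Vim UMIs and 66.0% and 55.1% of those in Z/Z, and without them the difference was -0.64 (adjusted p = 0.210). Zeb1 was at 78.7, 90.4, 105 and 125 CPM (0.44, SE 0.16, edgeR adjusted p = 0.108), and at 0.22 without those cells. Snai2 was at 17.9, 16.8, 25.2 and 36.9 CPM (0.83, SE 0.25, edgeR adjusted p = 0.0678). Neither Zeb1 nor Snai2 overlapped between genotypes, as was so for 67.8% of all genes tested in TECs.

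Snai1 and Twist1 were near the limit of detection in TECs. Snai1 had 24, 0, 101 and 42 UMIs, and 3 UMIs in WT 2 would be 1.19 CPM (log2 fold change 1.60, SE 0.93, edgeR adjusted p = 0.264). Of the Z/Z Snai1 UMIs, 80.2% and 57.1% were in aaTEC2-like cells. Twist1 had 4, 5, 48 and 39 UMIs (1.49, SE 0.92, edgeR adjusted p = 0.292), and its difference was 1.10 without aaTEC2-like cells. Single libraries decided both values: Snai1 was 8.64 (edgeR adjusted p = 0.0493) without WT 1, where the remaining WT library had 0 UMIs, so this is not a bound. Twist1 was 2.92 (edgeR adjusted p = 0.0425) without WT 2 and 0.17 without WT 1. With all 4 libraries neither difference passed.

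**Figure D3:**
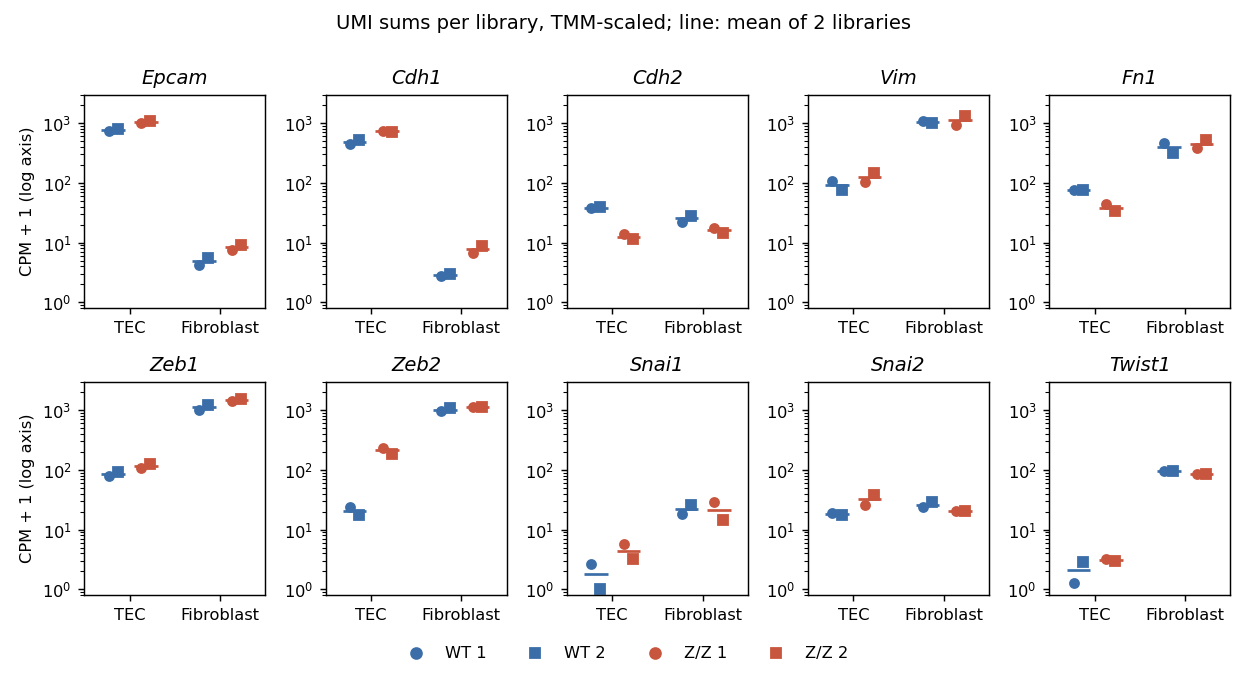
Each panel is a gene. Points are the CPM + 1 (log axis) of the 4 libraries in the TEC and fibroblast sums and horizontal lines are the means of the 2 libraries of a genotype. In TECs, Zeb2 lies at 16.4 and 22.7 CPM in WT and at 185 and 234 CPM in Z/Z, below the fibroblast points.

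Without the aaTEC2-like cluster, 6 of 10 members passed in the remaining TECs, where 18.4% of all genes did. Epcam then passed (log2 fold change 0.63, SE 0.16, edgeR adjusted p = 0.0473), as did Snai2 (0.98, SE 0.24, edgeR adjusted p = 0.0457). Cdh1 (0.78), Cdh2 (-1.64) and Fn1 (-0.83) kept their directions and passed. Where each TEC class with at least 10 cells in every library was given the same share in every library, which left Aire-stage mTEC2-like and cTEC-like cells, 0 members passed in edgeR's test, with Cdh1 at 0.27, Cdh2 at -0.45, Fn1 at -1.39 and Zeb2 at 0.72. That fit called 9 of 12280 genes.

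**Figure D4:**
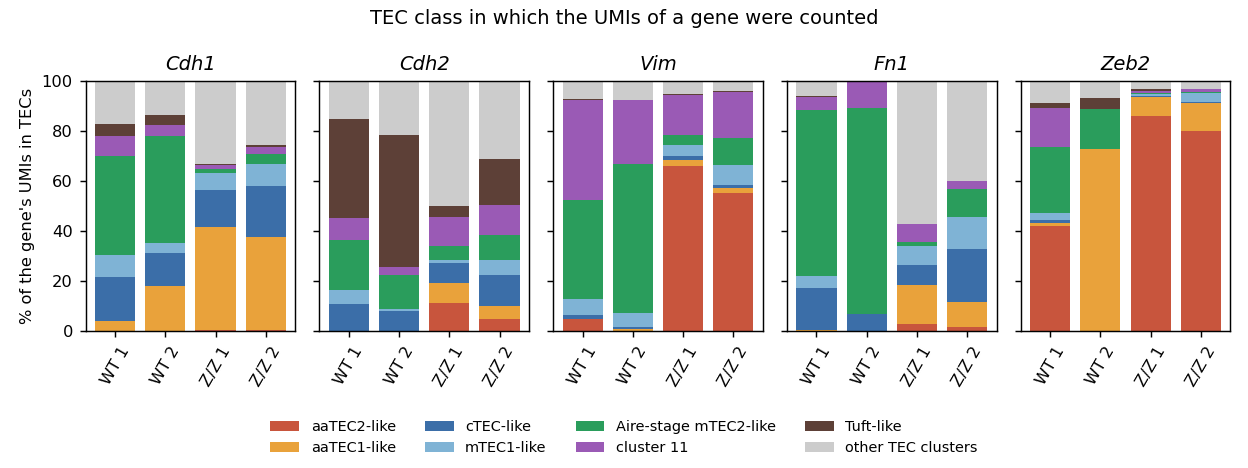
Bars divide the UMIs of a gene in the TECs of a library among TEC classes, in percent. The aaTEC2-like class (red) holds 85.9% and 79.9% of Zeb2 and 66.0% and 55.1% of Vim in Z/Z, and Aire-stage mTEC2-like cells (green) hold 66.4% and 82.3% of Fn1 in WT.

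Aire-stage mTEC2-like cells were the one TEC class with at least 20 cells in every library (187, 34, 29 and 46). Of the members, 7 had enough counts to be tested and 0 passed in edgeR's test, where 0% of 11119 genes did. At an unadjusted p under 0.05 there were 3 members and 1100 genes, and DESeq2 called 130 genes, none of them a member. Fn1 was at 119, 134, 27.3 and 57.3 CPM (log2 fold change -1.53, SE 0.39, edgeR adjusted p = 0.427). Vim was at 103, 97.1, 171 and 253 CPM (1.09, SE 0.28, edgeR adjusted p = 0.427) and Epcam at 787, 743, 1156 and 1199 (0.62, SE 0.19, edgeR adjusted p = 0.459). The genotypes did not overlap for these 3 genes, nor for 44.6% of all genes tested in this class. Cdh1, at 426, 469, 484 and 448 CPM, overlapped.

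In fibroblast sums 1 of 10 members passed, where 3.1% of the 13914 genes tested did, 1.8% higher and 1.31% lower. Zeb2 was at 970, 1064, 1126 and 1137 CPM (log2 fold change 0.15, SE 0.16, edgeR adjusted p = 0.682). Vim was at 1079, 1000, 919 and 1319 CPM (0.11, SE 0.20, edgeR adjusted p = 0.838) and Fn1 at 461, 319, 377 and 520 (0.20, SE 0.22, edgeR adjusted p = 0.701). The genotypes overlapped for Vim and Fn1, while 50.5% of all genes tested in fibroblasts did not overlap.

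Zeb1 in fibroblasts was at 1017, 1193, 1407 and 1519 CPM, higher in both Z/Z libraries without passing (log2 fold change 0.40, SE 0.17, edgeR adjusted p = 0.258). Twist1 was at 95.1, 94.6, 84.4 and 84.0 CPM (-0.17, SE 0.15, edgeR adjusted p = 0.597), Snai2 at 22.8, 27.6, 19.5 and 19.1 (-0.37, SE 0.20, edgeR adjusted p = 0.379) and Cdh2 at 21.4, 27.3, 16.7 and 13.4 (-0.67, SE 0.23, edgeR adjusted p = 0.163). Snai1 was at 17.4, 25.0, 27.8 and 13.4 CPM, with overlap (0.01, SE 0.33). None of the mesenchymal genes or factors thus passed in fibroblasts.

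The member that passed in fibroblasts was Cdh1, at 1.74, 1.97, 5.79 and 7.70 CPM from 16, 6, 72 and 60 UMIs (log2 fold change 1.88, SE 0.40, edgeR adjusted p = 0.0360). Epcam was at 3.26, 4.60, 6.52 and 8.22 CPM (0.96, SE 0.35, edgeR adjusted p = 0.190). Cdh1 UMIs were present in 1.06% of thinned fibroblasts, no more than in haematopoietic (1.26%) or endothelial cells (2.04%). In empty droplets, Cdh1 stood at 107, 52.5, 291 and 237 CPM in the same library order, also higher in Z/Z. The part of free RNA in the difference was not tested. With the empty-droplet profile subtracted, the log2 fold change was 2.02 with a wider error (SE 0.74) and was not called (edgeR adjusted p = 0.199). Under DESeq2 it was 1.87 (SE 0.65, adjusted p = 0.0768), and the call was also lost without WT 1 (1.75), WT 2 (1.93) or Z/Z 2 (1.67) and with a replicate block (1.82, edgeR adjusted p = 0.0963).

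In endothelial sums 0 of 10 members passed in edgeR's test, where 1.17% of genes did. At an unadjusted p under 0.05 there were 0 members and 2127 of 11447 genes, and DESeq2 called 210 genes, none of them a member. In mural sums 0 of 10 passed in edgeR's test, where 0.151% of genes did. At an unadjusted p under 0.05 there were 2 members (Fn1 and Snai2) and 865 of 9267 genes. DESeq2 called 33 genes, none of them a member. The WT sums of these lineages held 110 and 25 endothelial and 72 and 12 mural cells. Endothelial Snai1, the highest of any class, was at 60.6, 27.8, 59.1 and 56.2 CPM.

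**Figure D5:**
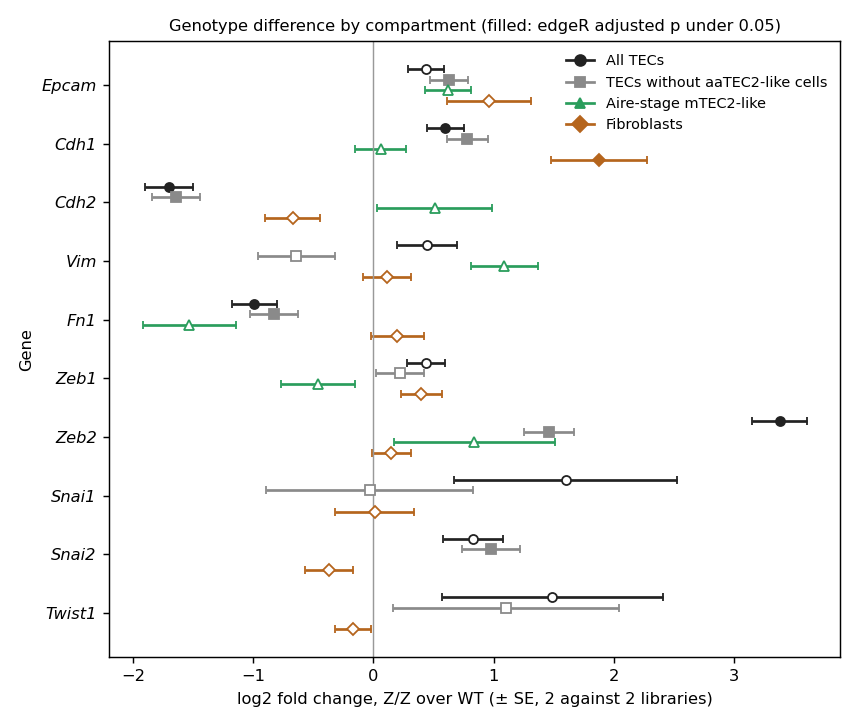
Points are log2 fold changes of Z/Z over WT with standard errors (2 against 2 libraries), filled where the edgeR adjusted p is under 0.05. Zeb2 lies at 3.38 in all TECs, 1.46 without aaTEC2-like cells and 0.15 in fibroblasts, and Vim lies at 0.45 and -0.64 with and without those cells.

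Whether the genotype difference itself was unlike in TECs and fibroblasts was tested as an interaction, with library as a term. It passed for 4 of 10 members, where 9.69% of genes did. Zeb2 differed by 3.19 (SE 0.23, edgeR adjusted p = 0.000698) and Snai2 by 1.12 (SE 0.29, edgeR adjusted p = 0.0490), both with the larger value in TECs. Cdh2 differed by -1.07 (SE 0.25, edgeR adjusted p = 0.0344) and Cdh1 by -1.26 (SE 0.31, edgeR adjusted p = 0.0398), the last set against low fibroblast counts (6 to 72 UMIs per library). Fn1 (-1.24, edgeR adjusted p = 0.0532) and Twist1 (2.04, edgeR adjusted p = 0.0767) did not pass. Zeb2 passed with any 1 library left out and with no library term. Snai2 passed in none of those fits, Cdh2 in 1 (without WT 2) and Cdh1 in 2 (without Z/Z 1 and with no library term).

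Other genes of the EMT programme were described by 4 lists. Among 30 epithelial junction and splicing genes tested in TECs, 2 were higher and 6 lower in Z/Z, with a median log2 fold change of -0.31. Over all genes tested, 9.36% were higher and 11.8% lower, and 21.1% passed in either direction. Without aaTEC2-like cells the list had 4 higher and 4 lower, with a median of -0.17. Without Z/Z 1, no gene of any list was called in TECs in edgeR's test, and no gene outside the lists was either. Cgn, which encodes the tight junction protein cingulin, was higher (1.23, SE 0.19, edgeR adjusted p = 0.0144; 29.2, 28.4, 75.6 and 59.7 CPM), as was Grhl2 (0.73), a grainyhead factor of epithelia. Its relative Grhl3 (-2.36) and the zinc finger gene Ovol1 (-1.52) were among the lower genes. The Grhl2 call was lost with any 1 library left out, and Grhl3 was -1.62 (adjusted p = 0.0519) without WT 1 and was also not called without Z/Z 2 (0.0943). The list thus held changes in both directions.

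Of 27 mesenchymal and matrix genes in TECs, 11 were higher and 3 lower, against 9.36% and 11.8% of all genes, with a median of 0.57. Tagln, an actin-binding gene of smooth muscle, was at 32.6, 14.6, 194 and 187 CPM (log2 fold change 2.93, SE 0.36, edgeR adjusted p = 0.00986). Col3a1 (2.65), a fibrillar collagen also used to name fibroblasts, and Mgp (2.55), a matrix inhibitor of calcification, were also higher. The matrix gene Tnc (-2.07) and S100a4 (-1.69) were among the lower genes. Without aaTEC2-like cells, 6 were higher and 3 lower, with Tagln at 1.48, Mgp at 1.64 and Fstl1 at 1.86 among the higher genes and Tnc at -2.04 among the lower. Col3a1 was then 1.21 and did not pass (edgeR adjusted p = 0.0581). Col3a1 was 3.67 without WT 1 and was not called without Z/Z 1 (0.0751) or Z/Z 2 (0.0555). The fibroblast markers summed to 121, 105, 246 and 251 CPM in the TEC sums with 0 of 6 at 0, and the 7 mural markers to 383, 227, 300 and 327 CPM, with Kcnj8 at 0 in WT 2. Haematopoietic markers summed to 299, 640, 62.9 and 123 CPM and erythroid markers to 408, 149, 5.30 and 7.94 CPM, both lower in Z/Z, and parathyroid markers to 1025, 36.4, 207 and 23.8 CPM. The part of these other cell types in the TEC differences was not tested.

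Of 19 other EMT-linked transcription factors, 15 were tested in TECs and 9 were higher and 0 lower, against 9.36% and 11.8% of all genes, with a median of 0.93. Prrx1, the gene most like Zeb2 across classes, was at 3.84, 2.24, 26.4 and 22.7 CPM (log2 fold change 2.89, SE 0.31, edgeR adjusted p = 0.00897). Prrx2 (2.25) and Id3 (1.44), an inhibitor of helix-loop-helix factors, were also higher, Prrx2 at 3.31 without WT 1 and not called without Z/Z 2 (adjusted p = 0.163). Without aaTEC2-like cells 6 were higher, led by Tcf4 (1.28), Id1 (1.24) and Yap1 (1.13), while Prrx1 (0.73) and Prrx2 (1.49) did not pass. Of 15 TGF-beta signalling genes, 4 were higher and 0 lower, with a median of 0.29, among them Ltbp1 (1.91), which anchors latent TGF-beta, and the receptor genes Tgfbr3 (1.32) and Tgfbr2 (0.75). Without aaTEC2-like cells 2 were higher, Tgfbr3 (1.35) and Tgfbr2 (0.73), and Ltbp1 was 0.24 (adjusted p = 0.440). Both receptor genes therefore passed with and without that cluster, although the Tgfbr2 call was lost with any 1 library left out.

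The same lists were counted in fibroblasts, where 1.8% of all genes were higher and 1.31% lower. None of 16 transcription factors and 0 of 12 epithelial genes were higher, and 1 epithelial gene, Spint2, was lower (log2 fold change -1.54). Of 27 mesenchymal genes, 0 were higher and 4 lower. Tnc was at 130, 88.7, 44.1 and 23.1 CPM (-1.70, SE 0.29, edgeR adjusted p = 0.0149), and the matrix gene Postn (-1.50) and the surface marker gene Thy1 (-1.47) were lower too. Postn was also a marker used to name medullary-like fibroblasts, which were 335 of 564 and 125 of 180 fibroblasts in WT and 344 of 1102 and 141 of 708 in Z/Z. In medullary-like cells alone, Tnc (-1.44) and Thy1 (-1.18) were still lower, whereas Postn (-0.60, adjusted p = 0.261) and Spint2 (-0.73, adjusted p = 0.252) did not pass. With 1 library left out, Postn was not called without WT 1 (-1.18, adjusted p = 0.0792), nor Spint2 without WT 2 (0.0958) or Z/Z 2 (0.0879). In capsular-like cells alone Thy1 was -0.39 (adjusted p = 0.682). In the TGF-beta list 1 of 15 was higher, Thbs1, at 115, 156, 396 and 353 CPM (1.47, SE 0.19, edgeR adjusted p = 0.00401), whose product activates latent TGF-beta. It did not pass in medullary-like (0.33, adjusted p = 0.433) or capsular-like cells alone (3.23, adjusted p = 0.0688). Tnc was therefore lower in both compartments.

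Cells with both an epithelial and a mesenchymal transcript were counted last. UMIs of Epcam and of Vim in the same thinned TEC were found in 9.04% (49 of 542; exact 95% interval 6.76% to 11.8%) and 9.62% (10 of 104; 4.71% to 17.0%) of WT cells. In Z/Z the shares were 2.61% (50 of 1917; 1.94% to 3.42%) and 3.88% (57 of 1469; 2.95% to 5.00%). The means were 9.33% ± 0.406 (SD, n = 2) and 3.24% ± 0.899 (SD, n = 2), without overlap, and the exact two-sided permutation p was 0.333, the smallest that 2 against 2 libraries can give. Without thinning, the shares were 29.6%, 26.9%, 10.6% and 16.7%. With aaTEC2-like cells left out, the means of thinned cells were 9.33% in WT and 3.70% in Z/Z. In fibroblasts 0% to 1.56% of thinned cells had both, where 0 of 180 cells in WT 2 allows a share of up to 1.67%.

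By class, co-detection was most frequent in cluster 11, with 40 of 101 cells (39.6%, 30.0% to 49.8%), followed by Aire-stage mTEC2-like (12.3%) and mTEC1-like cells (11.4%). The aaTEC2-like cells, which had high Vim, had both transcripts in 1.98% of cells, the aaTEC1-like cells, which had high Epcam, in 1.39%, and cTEC-like cells in 1.41%. The share was thus highest in cluster 11, which was 7.82% and 4.81% of WT TECs and 1.28% and 1.83% of Z/Z TECs. The intervals of Aire-stage mTEC2-like (8.79% to 16.7%) and mTEC1-like cells (6.89% to 17.4%) overlapped. Each of the age-associated classes had UMIs mostly of a single gene of the pair. Left-over doublets of a TEC with another cell would also be counted here, which was not tested, and without doublet removal the WT and Z/Z means were 10.6% and 3.64%.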

How the data were processed

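The authors mapped reads with Cell Ranger (version 7.01 in the submitters' processing notes) to mm10, and the deposited values are UMI counts of genes by barcode, unnormalized. The kit is given as v2 in the labels and a v3 chip elsewhere. Cells with over 1000 genes and under 20% mitochondrial UMIs were kept, and the 3.9% with the highest Scrublet score per library were removed (scanpy 1.11.5). Leiden clusters (leidenalg 0.10.2, resolution 1) were made without the 10 genes and the EMT lists and named from markers. UMIs were summed per library and class and tested with edgeR 4.0.16 (R 4.3.3; quasi-likelihood, TMM, filterByExpr, two-sided, Benjamini-Hochberg over all genes, 0.05), with DESeq2 1.42.0 as an alternative. The test script was tested on simulated data. Named were all 10 genes and, per list, up to 3 called genes with the largest fold change in each direction, of which some are not reported here. The genes, lists and markers were chosen with earlier results of these data known. Empty droplets are barcodes with at most 100 UMIs. Positions follow GENCODE on GRCm38, and promoter sequence is from RefSeq.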

Additional observations from a re-analysis of the deposited data

Results flagged for a closer look

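For 4 genes, the genotype difference was unlike in TECs and fibroblasts by the interaction test (edgeR). For Zeb2 the log2 fold change in TECs minus that in fibroblasts was 3.19 (3.38 against 0.15). For Snai2 it was 1.12 (0.83 against -0.37), for Cdh2 -1.07 (-1.70 against -0.67) and for Cdh1 -1.26 (0.60 against 1.88). With the sums taken as independent, 2 of these passed, Cdh1 and Zeb2, and Snai2 passed in no alternative fit. No group had enough libraries for a search for libraries that stand apart.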

How the results depend on the processing

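In TEC sums, 4 members passed; 2 did with cells thinned to 2000 UMIs, 0 with shared barcodes left out, 0 with equal class shares, 3 with the replicate number as a replicate block, and 0 to 4 with 1 library left out (0 without Z/Z 1, 2 without Z/Z 2). Keeping shared barcodes only in the deeper library, chosen after seeing the data, gave 4. The TEC log2 fold change changed sign for Epcam when thinned (-0.15), for Vim and Snai1 without aaTEC2-like cells (-0.64 and -0.03), and with equal class shares for Zeb1 (-0.76), Id3 (-0.21), Ltbp1 (-0.77), Ovol1 (0.47) and S100a4 (1.36). In fibroblast sums, 1 passed, and 0 did under DESeq2, the replicate block, thinning, empty-droplet subtraction, over 500 genes, without shared barcodes, and in capsular-like or medullary-like cells alone (both chosen after seeing the data), with 0 to 1 when 1 library was left out. Signs changed there for Vim (-0.05 thinned, -0.26 medullary-like, -0.17 to 0.35 with 1 library left out), Fn1 (-0.05 to 0.48 with 1 library left out), Zeb1 (-0.18) and Zeb2 (-0.09) in medullary-like cells, and Snai1 (-0.02 DESeq2, -0.04 replicate block, -0.13 without shared barcodes, -0.62 to 0.43 with 1 library left out). In Aire-stage mTEC2-like sums, 0 passed under the replicate block and 2 (Vim and Fn1) with no filter on low counts, where 777 of 24852 genes did. Cdh1 there was -0.07 thinned, -0.08 at over 500 genes, -0.01 without shared barcodes and -0.01 to 0.12 with 1 library left out. Without doublet removal no such cluster was named, so that value was not run. The interaction passed for 2 members with no library term and for 1 to 3 with 1 library left out. The cause of these changes was not tested. Of 146 TEC values, 116 kept direction and side of the threshold, as did 121 of 144 in fibroblasts and 74 of 80 in Aire-stage cells. The class with the highest level was the same for 8 genes at double the clustering resolution (Cdh1 and Zeb1 moved) and 9 with thinned cells (Twist1 moved). The replicate numbers share only a number: same-numbered libraries had deviations with r = -0.0804 in TECs and -0.0354 in fibroblasts. Over all genes, TEC calls numbered 4015, against 2449 with the replicate block, 2 without shared barcodes, 9 with equal class shares, 1309 without Z/Z 2 and 0 without Z/Z 1. Fibroblast calls numbered 432, against 1268 with no filter, 192 with the block, 258 without shared barcodes, 173 thinned and 757 without Z/Z 1, and interaction calls 1786, against 1091 with no library term and 975 without Z/Z 1. Co-detection of Epcam and Vim was lower in Z/Z by 0.821 to 6.95 percentage points over its alternatives. Depth limits Snai1 and Twist1 in TECs and every value of WT 2.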
